A study of Mus musculus with 12 samples.

Results

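The genes described here encode the proteins of the mitochondrial ribosome and were followed on 12 arrays of tumours grown under the skin of mice from a lung adenocarcinoma line. They are all genes whose symbol starts with Mrpl or Mrps followed by a digit, each read from its brightest probe set, the one with the highest mean over the 12 arrays. The rule found 76 genes among the 18193 genes with a probe set of their own, 47 with large subunit symbols (Mrpl) and 29 with small subunit symbols (Mrps). All 76 passed the filter on low values, which kept 15493 genes, so no member was lost to it. The set was selected on the measured levels of these arrays, for being lower in parental tumours treated with anti-PD-1. That difference is given as a description, and the calls made in it are not read as a test.

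Mitochondria carry their own ribosome, which makes only the few respiratory chain and ATP synthase subunits encoded by mitochondrial DNA. All of its proteins are encoded in the nucleus, made in the cytosol and imported, while its rRNAs come from mitochondrial DNA. Some of the proteins descend from bacterial ribosomal proteins, others exist only in mitochondria, and loss of individual members causes respiratory chain disease. The symbols follow an older naming and do not always give the subunit: the products of Mrps30 and Mrps18a sit in the large subunit, and that of Mrps36 belongs to the oxoglutarate dehydrogenase complex. Placed by structure, 49 members belonged to the large subunit and 26 to the small one, and Mrps36 was counted apart. Mrpl30 and Mrpl53 had no probe set of their own in the table.

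Cells of the mouse lung adenocarcinoma line 344SQ were injected under the skin of the right flank of female mice of the strain 129sv/ev. They were either the parental line (Sen) or a derivative resistant to anti-PD-1 (Res), an antibody that blocks the inhibitory receptor PD-1 on T cells. Mice received anti-PD-1 or control IgG at 10 mg/kg on days 4 and 7, and tumours were taken on day 11. The 4 groups were thus parental tumours with control IgG (Sen+IgG), parental tumours with anti-PD-1 (Sen+PD1), resistant tumours with control IgG (Res+IgG) and resistant tumours with anti-PD-1 (Res+PD1), with 5 mice stated per group and 3 arrays each. The labels do not tie arrays to mice, so p-values measure the spread between these 3 arrays per group, which may in part be technical. The labels name 1 resistant derivative and do not say whether it is a clone, so resistance and any other difference of those cells cannot be told apart. Values are log2 expression levels from Mouse Genome 430 2.0 arrays, a difference of 1 being a doubling, and are compared only within a probe set.

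Arrays of whole tumours also read host cells, and fewer cells of a type and less RNA per cell cannot be told apart in them. The mean of 12 epithelial markers lay between 8.55 and 9.49 in parental tumours and between 8.32 and 8.46 in resistant ones, where 1 of the 12 was dim, that is at or below the 25th percentile of all values in the table. The mean of 12 skeletal muscle markers varied most, from 6.72 to 10.75 in Sen+IgG, from 9.66 to 11.47 in Sen+PD1, from 9.08 to 10.12 in Res+IgG and from 6.22 to 9.26 in Res+PD1. Sen+IgG replicate 1 and Sen+PD1 replicate 3 stood apart from the other parental arrays on the first pair of principal components, which held 48.5% and 21.6% of the variance. They also held the lowest and the highest muscle level of the parental arrays. The mean of 9 cell cycle genes was 8.81 ± 0.15 (SD, n = 3) in Sen+IgG, 8.49 ± 0.58 (SD, n = 3) in Sen+PD1, 9.41 ± 0.07 (SD, n = 3) in Res+IgG and 9.40 ± 0.17 (SD, n = 3) in Res+PD1. The excess of 3' over 5' signal of the Gapdh control, a measure of RNA integrity, was 0.21 ± 0.08, 0.32 ± 0.09, 0.04 ± 0.06 and 0.03 ± 0.06 log2 units in the same order (SD, n = 3). The part of these factors in the results on mitochondrial ribosomal proteins was not tested.

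In parental tumours, 74 of the 76 members were lower with anti-PD-1 than with control IgG, against 51.1% of all genes. The median log2 difference was -0.28, against -0.01 over all 15493 genes. The difference ran from -0.77 for Mrpl50 to 0.02 for Mrpl28. The 3 Sen+PD1 arrays did not overlap the 3 Sen+IgG arrays for 47 members, all lower, against 13.4% of all genes. With limma fitted across all genes, 11 members were called lower, which is 14.5% of them, beside 2.27% of all genes called lower and 3.5% called in either direction. Those 11 were Mrpl1, Mrpl11, Mrpl17, Mrpl20, Mrpl21, Mrpl32, Mrpl36, Mrpl50, Mrps18c, Mrps22 and Mrps33. Because this contrast chose the members, nothing is read from these counts.

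The levels by array describe the same choice. The median member stood at -0.07, 0.04 and 0.02 from its own mean over the 12 arrays in Sen+IgG replicates 1 to 3, and at -0.26, -0.22 and -0.35 in Sen+PD1 replicates 1 to 3. In Res+IgG it stood at 0.14, 0.22 and -0.001, and in Res+PD1 at 0.17, 0.15 and 0.20. Each Sen+PD1 array lay below every Sen+IgG array for many members, 56, 57 and 65 of 76 in replicates 1, 2 and 3. Sen+PD1 replicate 3 was the lowest of all 12 arrays for 47 members, and it also had the highest muscle level and the lowest cell cycle level (7.90) of the parental arrays. Without both arrays that stood apart the median difference was -0.28, with 68 of 76 members below 0. The arrays left in also chose the members, so nothing is read from this value.

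**Figure D1:**
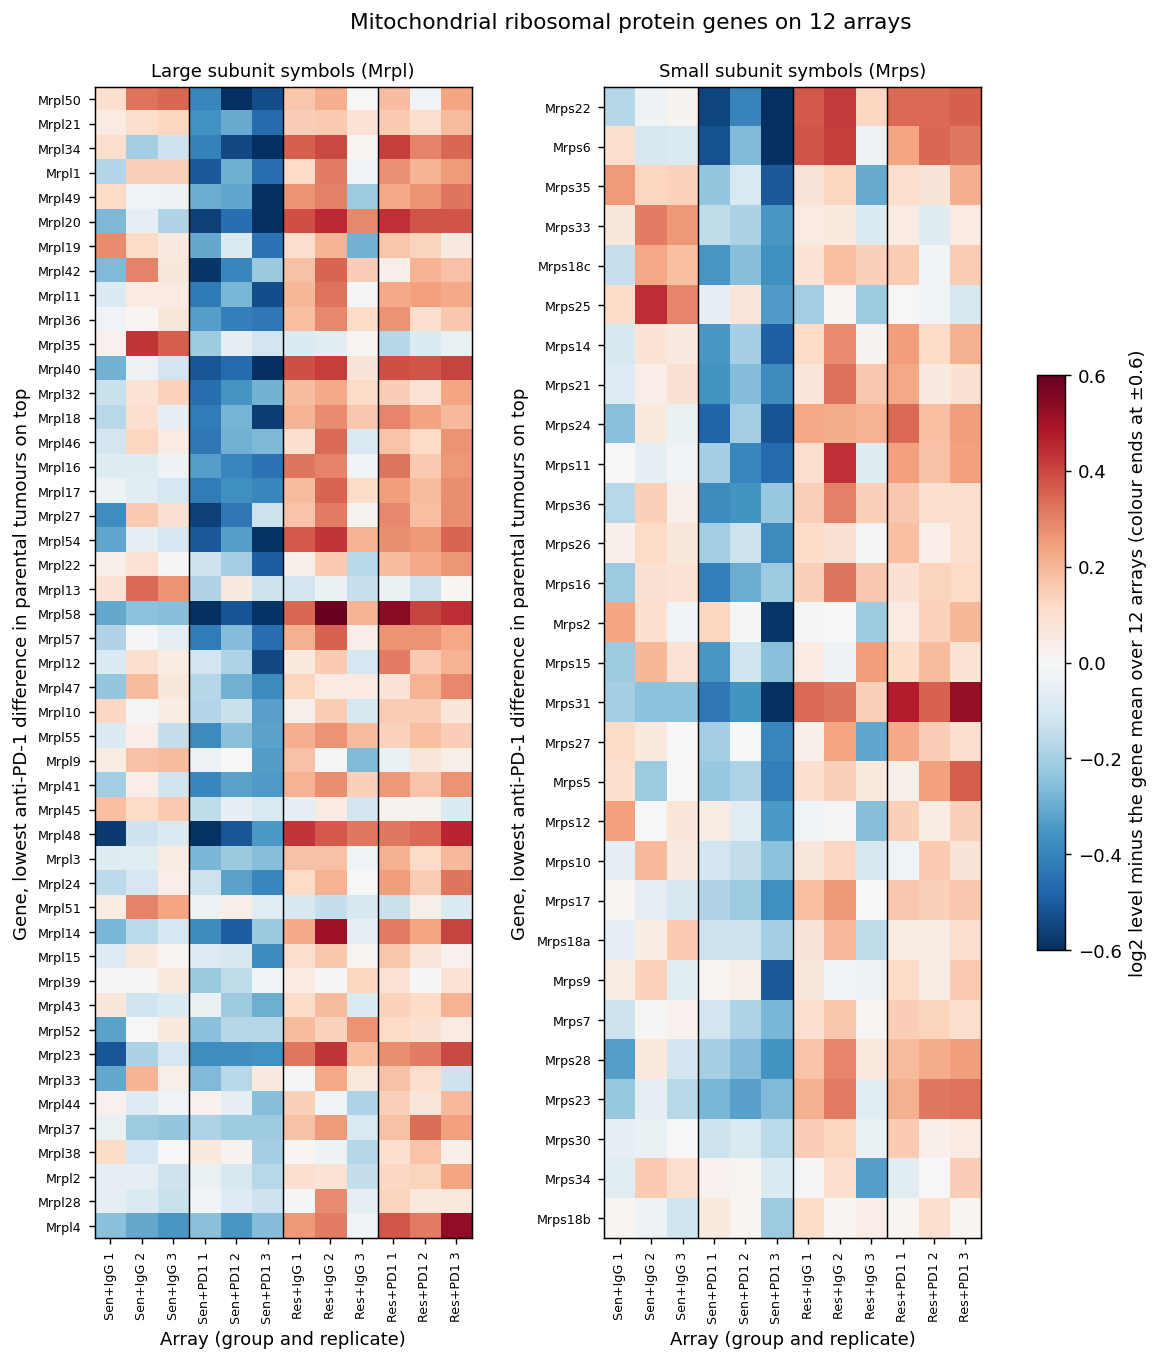
Each row is a member and each column an array, coloured by the log2 level minus the member's mean over the 12 arrays (colour ends at 0.6 in either direction), with large subunit symbols on the left and small subunit symbols on the right. Rows run from the lowest to the highest difference in parental tumours; the 3 Sen+PD1 columns are mostly blue, and the resistant columns are mostly red apart from Res+IgG replicate 3, which is paler.

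Mrpl50, a mitochondria-specific protein of the large subunit encoded on chromosome 4, differed most. It read 8.54, 8.77 and 8.79 in Sen+IgG and 8.05, 7.82 and 7.91 in Sen+PD1, then 8.61, 8.66 and 8.44 in Res+IgG and 8.63, 8.42 and 8.68 in Res+PD1. Only the Sen+PD1 arrays were low, and they lay below the other 9 without overlap. The parental difference was -0.77 (SE 0.11) and the resistant one 0.01 (SE 0.11).

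Mrps22, a mitochondria-specific protein of the small subunit whose loss in people causes mitochondrial disease, came next. Its levels were 7.85, 7.99 and 8.04 in Sen+IgG, 7.47, 7.62 and 7.19 in Sen+PD1, 8.39, 8.44 and 8.15 in Res+IgG and 8.36, 8.36 and 8.38 in Res+PD1. Here the groups fell into 3 tiers without overlap, Sen+PD1 below Sen+IgG and both below the resistant tumours, whose 2 groups overlapped. The parental difference was -0.53 (SE 0.12).

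Mrps6, Mrpl21 and Mrpl34, all with bacterial counterparts, completed the 5 lowest. Mrps6, on chromosome 16, read 8.52, 8.33 and 8.34 in Sen+IgG and 7.90, 8.16 and 7.65 in Sen+PD1, a difference of -0.49 (SE 0.14). Mrpl21, on chromosome 19, read 8.48, 8.54 and 8.56 against 8.07, 8.13 and 7.97, a difference of -0.47 (SE 0.07). For Mrpl34, on chromosome 8, the values were 8.31, 8.0 and 8.08 against 7.80, 7.66 and 7.54, a difference of -0.46 (SE 0.12). In each of these the Sen+PD1 arrays lay below the Sen+IgG arrays without overlap, Mrpl21 with the smallest spread within groups.

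At the other end, 9 members differed by less than 0.1 in parental tumours on the probe set used. Mrpl28, a bacterial-type protein of the large subunit, read 8.86, 8.83 and 8.78 in Sen+IgG and 8.90, 8.84 and 8.79 in Sen+PD1 (0.02, SE 0.09). Mrpl4, whose bacterial counterpart lines the exit tunnel for the growing protein, read 7.92, 7.86 and 7.82 against 7.92, 7.82 and 7.91 (0.02, SE 0.10). The groups overlapped for both, and also for Mrps18b (-0.003, SE 0.09), Mrpl2 (-0.02, SE 0.08) and Mrpl37 (-0.04, SE 0.10). Further probe sets of Mrpl44 read -0.22, -0.39 and -0.44, against -0.07 on the one used. Those of Mrpl28 read -0.07 and -0.05, and those of Mrpl38 read 0.13 and -0.10, against -0.04 on the one used. With no threshold in the rule there are no members just outside it.

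**Figure D2:**
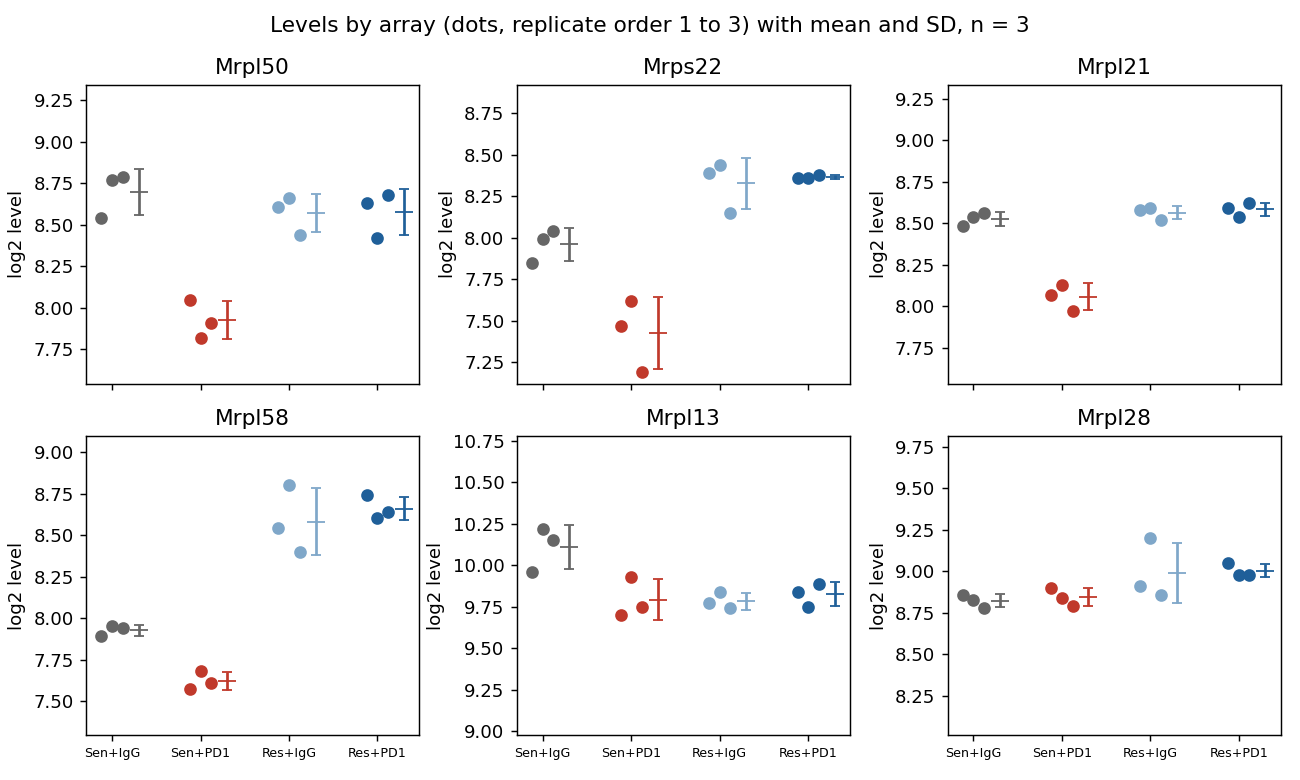
Log2 level of 6 members on each array (dots, replicates 1 to 3 from left to right), with the mean and SD of the 3 arrays beside them. Mrpl50, Mrps22 and Mrpl21 are lowest in Sen+PD1, Mrpl58 is higher in both resistant groups, Mrpl13 is highest in Sen+IgG, and Mrpl28 differs little between the parental groups.

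The subunits were close to each other in parental tumours, with a median difference of -0.30 for the 47 large subunit symbols and -0.26 for the 29 small subunit symbols. Of the large subunit symbols 8 were called lower and of the small ones 3, beside 2.27% of all genes. Nothing is read from these counts, because this contrast chose the members. By the role lists, the medians were -0.32 for the 29 large subunit proteins listed with a bacterial counterpart and -0.24 for the 20 listed as mitochondria-specific. In the small subunit they were -0.26 for the 16 listed with a bacterial counterpart and -0.28 for the 10 listed as mitochondria-specific. The list of 20 takes in Mrps18a, although it is a paralogue of bacterial S18. Each role held members with a wide range of differences, so its median hides more spread than separates the roles. The 3 paralogues of bacterial S18 differed: the small subunit protein Mrps18c stood at -0.42 (SE 0.10), Mrps18a of the large subunit at -0.20 (SE 0.09) and Mrps18b at -0.003 (SE 0.09). Mrps18c read 9.21, 9.58 and 9.53 in Sen+IgG and 9.0, 9.09 and 8.98 in Sen+PD1, without overlap, while Mrps18b read 7.97, 7.93 and 7.84 against 8.02, 7.97 and 7.74, with the groups mixed. For Mrps18a the values were 8.28, 8.38 and 8.49 against 8.21, 8.21 and 8.13, again without overlap. Mrps36, counted apart, stood at -0.32 (SE 0.09).

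**Figure D3:**
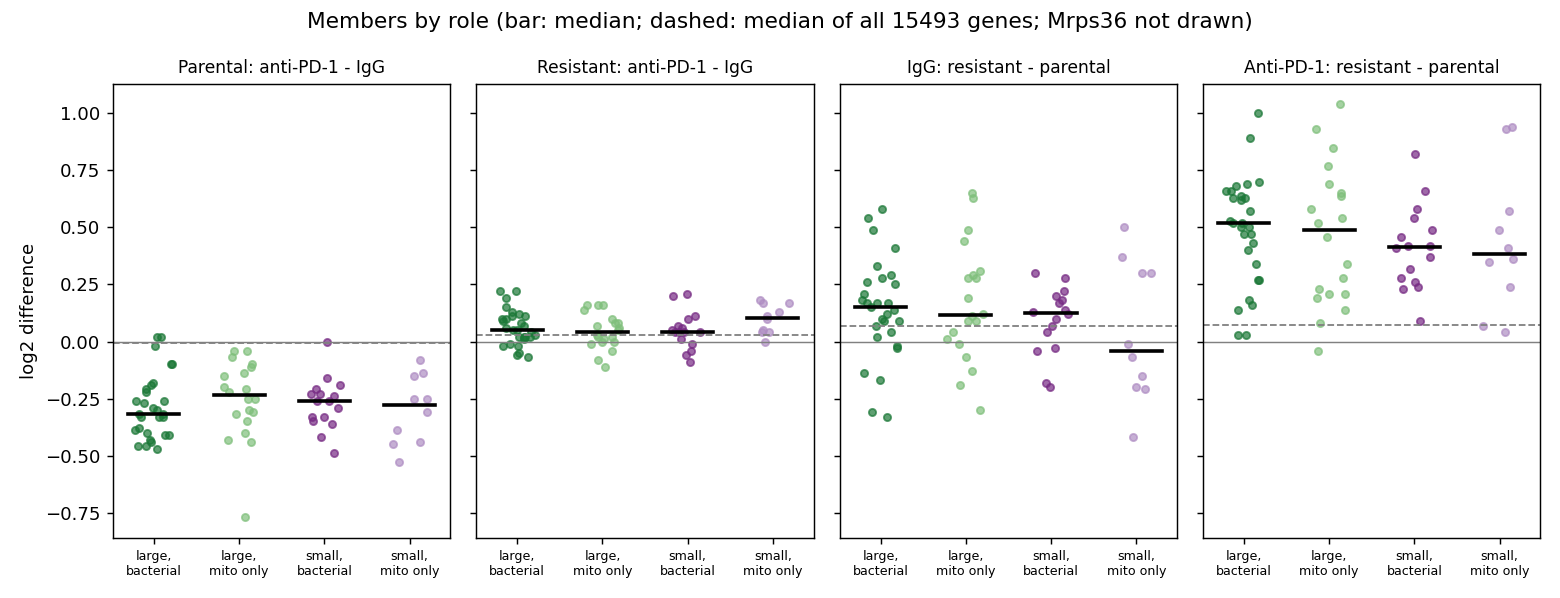
Log2 difference of each member (dots) in 4 comparisons, by subunit and by whether the protein was listed with a bacterial counterpart, with the median of each role (bar) and of all 15493 genes (dashed line). The 4 roles lie at similar depths in the left panel, with medians from -0.32 to -0.24, and close to the dashed line in the panel on resistant tumours with and without anti-PD-1.

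A gene can have several probe sets, and 42 members did. Of 73 further probe sets that were not dim, 57 were below 0 in parental tumours, with a median of -0.18. Among all 80 further probe sets, 21 pointed the other way from the one used, in 19 members. Of those, the widest gaps were for Mrpl21 (0.25 on a probe set with a mean level of 5.03, against -0.47 on the one used), Mrps21 (0.25 at a level of 5.12, against -0.35) and Mrpl1 (0.12 against -0.46). Another further probe set of Mrpl21, with a mean level of 4.89, read -0.06. The Mrpl1 probe set was dim, with a mean level of 2.99, and a brighter further probe set of Mrpl1, at 6.45, read -0.36. For Mrps26 the further probe set, with a mean level of 3.84, read 0.19 against -0.31. For Mrpl19 those at 4.86 and 2.67 read 0.13 and 0.12 against -0.43, but the brightest further probe set, at 7.14, read -0.58. Between the lines more disagreed: 30 of the 80 under IgG, in 24 members, and 28 under anti-PD-1, in 21 members. The further probe sets that were not dim had medians of 0.05 under IgG and 0.22 under anti-PD-1.

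The letters around the start sites do not enter the rule that chose the members. RefSeq windows from 250 bases before to 50 after the start (assembly GRCm38.p6) matched 67 members by gene. The letters CCGGAAG, the core bound by ETS factors including GABP, a regulator of nuclear genes for mitochondria, occurred in 25 of the 67 windows (37.3%), against 16.8% of 12373 tested genes with a window. The YY1 letters AAGATGGC occurred in 12 (17.9% against 4.50%), and the NRF1 core GCATGCG in 8 (11.9% against 6.24%). At least 1 of these 3 was present in 37 members (55.2% against 24.8%), and all 3 in none. The general promoter letters did not stand out that way: CCAAT was found in 38.8% of members against 42.1%, the E-box CACGTG in 7.46% against 10.8% and the Sp1 letters GGGCGG in 50.7% against 62.0%. Members with and without these letters had median parental differences of -0.30 and -0.26 for CCGGAAG, -0.33 and -0.27 for AAGATGGC, and -0.26 and -0.29 for GCATGCG. All of them were chosen in this contrast, so nothing is read from how close these medians are. Among the other tested genes, the medians with and without were -0.06 and 0.003 for CCGGAAG. They were -0.033 and -0.007 for AAGATGGC, and -0.053 and -0.003 for GCATGCG. Whether these letters go with the difference was not tested. A match is a description of the letters and not a measured binding site. Matches were counted on both strands, and matches of different motifs can overlap, since CCGGAAG ends and AAGATGGC begins with the same letters.

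**Figure D4:**
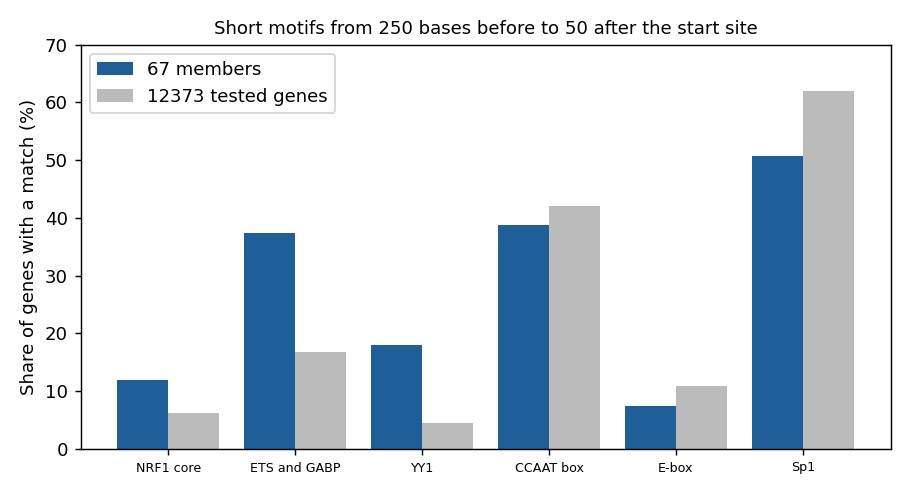
Share of genes with at least 1 match of each motif, on either strand, from 250 bases before to 50 after the start site, for 67 members (blue) and 12373 tested genes (grey). The ETS and GABP, YY1 and NRF1 bars are higher for the members (37.3%, 17.9% and 11.9%), and the CCAAT box, E-box and Sp1 bars are lower.

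Windows of 120 bases before the start are shown for 3 of the 5 members with the lowest parental difference and for Mrpl28, which differed by 0.02. Capitals mark matches of CCGGAAG and of a longer element, ACTACANTT, which was noticed only after the windows were read and is known from promoters that bind ZNF143. The positions are on GRCm38.p6 and each window reads along its own gene, Mrpl50 at chr4:49521084-49521203 on the minus strand, Mrps22 at chr9:98601680-98601799 on the minus strand, Mrpl34 at chr8:71464806-71464925 on the plus strand and Mrpl28 at chr17:26123383-26123502 on the plus strand.
Mrpl50: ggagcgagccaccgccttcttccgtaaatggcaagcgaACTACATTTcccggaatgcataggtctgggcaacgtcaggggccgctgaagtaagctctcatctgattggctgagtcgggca
Mrps22: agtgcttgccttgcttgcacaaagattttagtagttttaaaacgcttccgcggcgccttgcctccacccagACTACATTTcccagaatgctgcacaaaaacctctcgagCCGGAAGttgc
Mrpl34: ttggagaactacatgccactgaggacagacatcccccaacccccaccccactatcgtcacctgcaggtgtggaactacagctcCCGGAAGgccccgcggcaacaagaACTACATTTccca
Mrpl28: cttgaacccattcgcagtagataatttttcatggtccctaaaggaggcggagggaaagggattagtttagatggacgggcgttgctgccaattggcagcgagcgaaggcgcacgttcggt
The element was present in these 3 members alone among the 67 (4.48%, against 2.44% of tested genes), and Mrpl28 held neither set of letters in this stretch. Because it was picked after the values were known, nothing is read from its place among the lowest members.

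Many members share their start region with a gene read in the opposite direction. A divergent neighbour began within 1000 bases for 25 members (37.3%, against 17.4% of tested genes with a window). Mrpl46 and Mrps11 on chromosome 7 are each other's neighbour, 42 bases apart, and had like differences in parental tumours, -0.35 and -0.33. Mrpl50 lies 93 bases from Zfp189, a zinc finger gene, which stood at -0.45. For the other 23 members the neighbour is outside the family; their median was -0.26 and that of the neighbours -0.08, with 14 of the 23 neighbours below 0. Ighmbp2, 32 bases from Mrpl21, stood at 0.04, and Fau, a cytosolic ribosomal protein gene 192 bases from Mrpl49, at 0.07, while Mrpl49 stood at -0.44. These examples were picked after their values were seen.

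In resistant tumours no member was called between anti-PD-1 and control IgG. This contrast shares no array with the one that chose the members, so its differences do not use the arrays of that choice. Its standard errors and p-values do, because the fit estimates the spread of a gene from all arrays, parental ones included. The test is thus not fully independent of the choice. With only the compared groups fitted, which leaves the parental arrays out, the count of members called was also 0. Such a smaller fit called 0 members in parental tumours too, so no conclusion is drawn from its 0 here. By limma with Benjamini-Hochberg adjustment, 0 of 76 members and 0 of 15493 genes (0.0%) were called, and 1 member (Mrpl4) and 4.76% of all genes had an unadjusted p under 0.05. The median difference was 0.05, against 0.03 over all genes, with 58 of 76 members above 0 (58.4% of all genes), 15 below and 3 at 0. That direction rested on 1 array: without Res+IgG replicate 3 the members' median was -0.01, with 46 members below 0. The median of all genes stood at -0.008 from their own means on that array, and at 0.034 and 0.051 on Res+IgG replicates 1 and 2. The median difference over all genes without that array is not given, and the part of an array-wide shift was not tested. With quantile normalization 30 members were below 0.

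The 95% interval of a member's difference extended a median of 0.22 to either side, and 75 of 76 intervals included 0. The point estimates were under 0.1 in size for 53 members. A p that misses the threshold does not show that levels were equal.

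Mrpl4 had the highest difference in resistant tumours, with 8.43, 8.48 and 8.15 in Res+IgG and 8.54, 8.48 and 8.70 in Res+PD1. The groups overlapped, and the difference was 0.22 (SE 0.10, adjusted p = 0.896 by limma, unadjusted p = 0.0455). Mrpl22, which lines the exit tunnel in the bacterial ribosome, read 9.12, 9.24 and 8.92 against 9.27, 9.31 and 9.35 (0.22, SE 0.11). Mrps12, the counterpart of a protein at the bacterial decoding site, read 8.10, 8.12 and 7.87 against 8.27, 8.17 and 8.27 (0.21, SE 0.11). In both the Res+PD1 arrays lay above the Res+IgG arrays, with Res+IgG replicate 3 the lowest of the 6. Mrps2 stood at 0.20 (SE 0.16) and Mrpl12, a protein of the stalk that recruits translation factors, at 0.19 (SE 0.12).

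Among the lowest was Mrpl52, with 10.60, 10.55 and 10.68 in Res+IgG and 10.53, 10.50 and 10.46 in Res+PD1 (-0.11, SE 0.10). The groups did not overlap, yet the adjusted p was 0.896 by limma. Mrps16 (-0.09, SE 0.10), Mrpl42 (-0.08, SE 0.14), Mrpl55 (-0.07, SE 0.07) and Mrps36 (-0.07, SE 0.09) followed. The large and small subunit symbols had medians of 0.05 and 0.04. The spread within a group was smallest in Res+PD1, where the median member had an SD of 0.06, and 0.12 in Res+IgG, 0.11 in Sen+PD1 and 0.10 in Sen+IgG (n = 3 each).

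The difference of the responses, resistant minus parental, contains the contrast that chose the members and is described only. By limma no member and no gene was called (0.0%), while 43 of 76 members and 17.5% of all genes had an unadjusted p under 0.05. Its median over members was 0.35, with 73 members above 0, against 54.5% of all genes. The largest values were 0.78 for Mrpl50 (SE 0.15), 0.62 for Mrps35 (SE 0.18), 0.59 for Mrpl49 (SE 0.20), 0.57 for Mrps22 (SE 0.16) and 0.57 for Mrpl1 (SE 0.16). The smallest were -0.01 for Mrps18b, -0.01 for Mrpl28 and -0.003 for Mrpl52, followed by 0.06 for Mrpl33 and 0.10 for Mrps30.

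The array values behind 3 of the largest were as follows. Mrps35, a mitochondria-specific small subunit protein on chromosome 6, read 8.68, 8.55 and 8.56 in Sen+IgG, 8.19, 8.33 and 7.92 in Sen+PD1, 8.5, 8.55 and 8.12 in Res+IgG and 8.53, 8.5 and 8.64 in Res+PD1. Mrpl49, a mitochondria-specific large subunit protein, read 8.28, 8.14 and 8.13, then 7.86, 7.85 and 7.53, then 8.43, 8.46 and 7.94, then 8.39, 8.43 and 8.48 in the same order of groups. In both, Res+IgG replicate 3 was the lowest resistant array; it lay within the range of the Sen+PD1 arrays for Mrps35 and above all of them for Mrpl49. Without that array the members' median difference of responses was 0.28. Mrpl1, the counterpart of a bacterial protein at the exit site for tRNA, read 7.02, 7.34 and 7.34, then 6.69, 6.90 and 6.74, then 7.31, 7.50 and 7.18, then 7.47, 7.40 and 7.45. Its Sen+PD1 arrays lay below all the others without overlap.

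Under control IgG the lines differed in both directions. By limma 11 members were called higher in resistant than in parental tumours and 3 lower, which is 18.4% of members beside 16.2% of all genes, of which 8.93% were higher and 7.31% lower. A share near that of all genes is not a result about the family. The median difference was 0.12, against 0.07 over all genes. These counts use the Sen+IgG arrays, which also helped to choose the members. Of the 14 calls, 7 held when each array was left out in turn, and the count was 8 without Sen+IgG replicate 3, 7 without Res+IgG replicate 1 and 8 without Res+IgG replicate 2. Of the 47 large subunit symbols 10 were called higher and 2 lower, and of the 29 small ones 1 higher and 1 lower. Their medians were close, 0.15 and 0.11, and the subunits were not tested against each other.

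Mrpl58 was highest of all in this comparison. It encodes a peptidyl-tRNA hydrolase that is built into the large subunit and frees stalled ribosomes. It read 7.89, 7.95 and 7.94 in Sen+IgG, 7.57, 7.68 and 7.61 in Sen+PD1, 8.54, 8.80 and 8.40 in Res+IgG and 8.74, 8.60 and 8.64 in Res+PD1. The resistant arrays all lay above the parental ones, with a difference of 0.65 under IgG (SE 0.10, adjusted p = 0.00182 by limma). It was called under each alternative setting tried.

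Mrpl48, a mitochondria-specific protein of the large subunit on chromosome 7, read 7.19, 7.64 and 7.68 in Sen+IgG and 8.19, 8.13 and 8.08 in Res+IgG (0.63, SE 0.12, adjusted p = 0.00780 by limma). Mrpl23, whose bacterial counterpart sits at the tunnel exit, read 8.91, 9.23 and 9.32 against 9.74, 9.85 and 9.60 (0.58, SE 0.11, adjusted p = 0.00573 by limma). For both, Sen+IgG replicate 1 was the low array, and no parental array reached the resistant ones. Mrpl20, on chromosome 4, read 8.62, 8.84 and 8.71 against 9.28, 9.34 and 9.18 (0.54, SE 0.10, adjusted p = 0.00517 by limma). Mrps31, the 1 small subunit symbol called higher, read 7.89, 7.84 and 7.84 against 8.43, 8.41 and 8.23 (0.50, SE 0.10, adjusted p = 0.00670 by limma). With the mean of all its probe sets the difference of Mrps31 was 0.22 and was not called (adjusted p = 0.122). The other members called higher were Mrpl4, Mrpl17, Mrpl40, Mrpl41, Mrpl54 and Mrpl55.

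The 3 members called lower were Mrps25 and Mrpl51 on chromosome 6 and Mrpl13 on chromosome 15. Mrps25, a mitochondria-specific small subunit protein, read 7.83, 8.16 and 8.01 in Sen+IgG and 7.51, 7.73 and 7.50 in Res+IgG (-0.42, SE 0.12, adjusted p = 0.0383 by limma). Mrpl13, a bacterial-type large subunit protein, read 9.96, 10.22 and 10.15 against 9.77, 9.84 and 9.74 (-0.33, SE 0.09, adjusted p = 0.0345 by limma). Mrpl51, found only in mitochondria, read 10.11, 10.36 and 10.30 against 9.97, 9.92 and 9.97 (-0.30, SE 0.08, adjusted p = 0.0312 by limma). The groups did not overlap for any of them. None was called once each array was centred on its median, with differences of -0.36 for Mrps25, -0.27 for Mrpl13 and -0.25 for Mrpl51. The mean of all probe sets gave -0.27 for Mrps25 and -0.09 for Mrpl51. Next lowest were Mrpl35 (-0.31, SE 0.10) and Mrps35 (-0.21, SE 0.13), also on chromosome 6 and not called.

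Differences between the lines are given by chromosome as a description, with no test. All 6 members on chromosome 6 (Mrpl19, Mrpl35, Mrpl51, Mrps25, Mrps33 and Mrps35) were below 0 under IgG, with a median of -0.26, where all tested genes of that chromosome had a median of -0.06 and 18.0% were called lower. On chromosome 15, which holds Mrpl13, 18.3% of genes were called lower. On chromosome 8, which holds Mrpl34 and Mrps31, the 2 members had a median of 0.42 and all genes 0.25, with 28.0% called higher. On chromosome 4, where 16.5% of genes were called higher, the 4 members ranged from -0.13 for Mrpl50 to 0.54 for Mrpl20. The members' medians were also high on chromosomes 9 (0.37, 3 members) and 10 (0.34, 2 members), where all genes had medians of 0.05 and 0.07. In the parental response to anti-PD-1 the members' median was below 0 on each of the 17 chromosomes that hold any, from -0.41 on chromosomes 6 and 19 to -0.13 on chromosome 17.

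**Figure D5:**
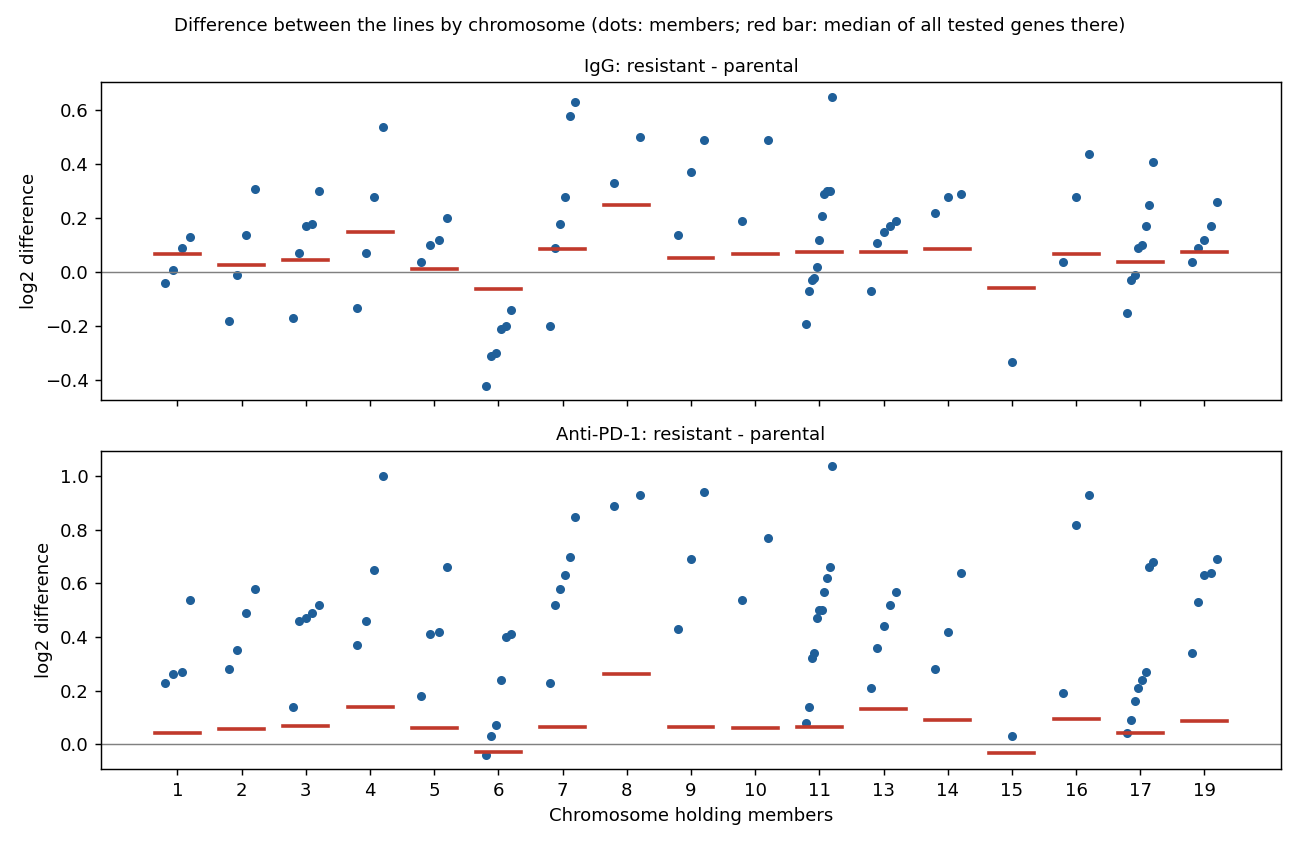
Log2 difference between resistant and parental tumours for each member (dots) by chromosome, under IgG (top) and under anti-PD-1 (bottom), with the median of all tested genes of that chromosome (red bar). The 6 members on chromosome 6 lie below 0 under IgG, around a median of -0.26, and under anti-PD-1 most dots on most chromosomes lie above the red bars.

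Under anti-PD-1 the calls between the lines ran in 1 direction. By limma 55 members were called higher in resistant than in parental tumours and 0 lower, 72.4% of members beside 33.5% of all genes called in either direction, 21.6% called higher and 11.9% called lower. The median difference was 0.46, against 0.07 over all genes, and 75 of 76 members were above 0, against 59.1% of all genes. This comparison uses the Sen+PD1 arrays, which helped to choose the members for being low, so it is not independent evidence of its direction. Of the 55 calls, 48 held when each array was left out in turn. When arrays were centred on their medians, the median of all genes went from 0.07 to 0.18 and that of the members to 0.57, with 64 called. The split of all calls moved from 3343 higher and 1843 lower to 5051 and 1300. All 11 members called higher under IgG were also among the 55 called here. The matching overlap over all genes is not given, so nothing is read from it.

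The highest members here were Mrpl58 at 1.04 (SE 0.10, adjusted p = 8.7e-05 by limma) and Mrpl20 at 1.00 (SE 0.10). Mrpl20 read 8.33, 8.44 and 8.09 in Sen+PD1 and 9.33, 9.27 and 9.27 in Res+PD1. Mrps22, described above, differed by 0.94 (SE 0.12). Mrps31 read 7.66, 7.73 and 7.42 against 8.56, 8.44 and 8.61 (0.93, SE 0.10), and Mrpl40, a mitochondria-specific large subunit protein on chromosome 16, read 8.29, 8.34 and 8.16 against 9.19, 9.18 and 9.21 (0.93, SE 0.10). In each of these 5 the groups did not overlap.

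The 5 members nearest 0 included those that were lower in the resistant line under IgG. Mrpl51 read 10.03, 10.10 and 10.00 in Sen+PD1 and 9.93, 10.10 and 9.98 in Res+PD1 (-0.04, SE 0.08). Mrpl13 read 9.70, 9.93 and 9.75 against 9.84, 9.75 and 9.89 (0.03, SE 0.09). Mrpl35 (0.03, SE 0.10), Mrps34 (0.04, SE 0.11) and Mrps25 (0.07, SE 0.12) overlapped likewise. For Mrpl13, Mrpl35, Mrpl51 and Mrps25, Sen+IgG was thus the high group, and the other 3 groups had like levels. Of the large subunit symbols 37 of 47 were called higher and of the small ones 18 of 29, with medians of 0.52 and 0.41. On chromosome 6 the 6 members had a median of 0.15.

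The rest of the mitochondrial translation pathway was followed by lists that do not use the family's symbols. The 4 measured mitoribosome proteins with other names had a median of -0.29 between the parental groups, with Ptcd3 at -0.40, Chchd1 at -0.38, Gadd45gip1 at -0.20 and Dap3 at -0.13, none of them called. Of 24 ribosome assembly and rRNA modification genes 1 was called lower, the assembly factor Malsu1 at -0.36, with a median of -0.15. Among 16 mitochondrial aminoacyl-tRNA synthetases the tyrosine enzyme Yars2 was called lower at -0.63, with a median of -0.15. Among 12 genes of mitochondrial transcription and RNA stability, Tfam, which packages mitochondrial DNA and starts its transcription, stood at -0.46 and its partner Tfb2m at -0.36, both called, with a median of -0.23. None of 10 translation factors was called lower, with a median of -0.14. Since these genes are read on the arrays that chose the members, their values are given beside the background of 2.27% called lower and read no further.

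The 31 tested subunits of respiratory complex I had a median of -0.18 in the same contrast. Of them Ndufa6 was called lower at -0.39, beside 2.27% of all genes called lower. The 46 genes of the cytosolic ribosome had a median of -0.06 and none was called. That list takes in Rpl3l, Rpl7l1 and Rps27l, relatives that are not part of the standard ribosome. Of 9 regulators of nuclear genes for mitochondria none was called, with a median of -0.01. Those with the smallest p were Gabpa, the DNA-binding part of GABP, at -0.40, the coactivator Ppargc1a at -0.57 and its relative Ppargc1b at 0.32. Yy1 stood at -0.01 and Nrf1 at 0.13.

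In resistant tumours given anti-PD-1 no gene of these lists was called by limma, beside 0.0% of all genes, and the medians lay between 0.01 for complex I and the cytosolic ribosome and 0.17 for mitochondrial transcription. Between the lines under anti-PD-1, 13 of 24 assembly genes were called higher and 0 lower, beside 21.6% of all genes called higher and 11.9% called lower. The assembly factors Ddx28 at 1.01 (SE 0.13), Mtg2 at 0.58 (SE 0.09) and the methyltransferase Mettl15 at 1.14 (SE 0.18) had the smallest p. Among the synthetases 10 of 16 were higher and 1 lower, with Cars2 at 0.87 (SE 0.08), Yars2 at 0.91 (SE 0.12) and Nars2 at 0.77 (SE 0.14). Of the transcription genes 5 of 12 were higher, with Tefm at 0.99 (SE 0.13), Tfam at 0.69 (SE 0.10) and Tfb2m at 0.53 (SE 0.08). For the translation factors the count was 5 higher of 10 and 1 lower: Mrrf, which recycles ribosomes, stood at 0.69 (SE 0.11), and Guf1 at -0.60 (SE 0.18). The cytosolic ribosome had 19 of 46 called higher with a median of 0.16, and complex I 15 of 31 with a median of 0.26, beside the median of 0.46 of the family itself. Among the regulators Gabpa was called higher at 0.48 (SE 0.13) and Nrf1 lower at -0.49 (SE 0.14).

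Levels of markers of other cells are given for the same contrasts. In parental tumours the medians with anti-PD-1 were 1.30 for skeletal muscle, 0.81 for endothelial cells, 0.40 for T and NK cells, 0.34 for fibroblasts, 0.30 for macrophages and monocytes, -0.05 for epithelial cells and -0.33 for the cell cycle list. Of these lists only the cell cycle had a call, 1 of 9 genes lower, beside 2.27% of all genes. In resistant tumours the medians were -1.68 for muscle, -0.39 for endothelial cells, 0.11 for T and NK cells, -0.53 for fibroblasts, -0.26 for macrophages, 0.08 for epithelial cells and -0.02 for the cell cycle, with none called. Between the lines under IgG the medians were 0.57 for muscle, 0.71 for endothelial cells, -0.66 for T and NK cells and 0.80 for fibroblasts. They were 0.06 for macrophages, -0.33 for epithelial cells and 0.61 for the cell cycle. Called higher were 2 of 9 cell cycle genes and 1 of 6 endothelial, 1 of 8 fibroblast and 1 of 10 macrophage markers. Called lower were 3 of 12 epithelial and 1 of 11 T and NK cell markers. Of all genes 8.93% were called higher and 7.31% lower. Between the lines under anti-PD-1, the cell cycle list had 6 of 9 genes called higher with a median of 0.89, beside 21.6% of all genes. T and NK cell markers had 4 of 11 called lower (median -0.95), epithelial markers 3 of 12 lower and 1 higher (median -0.19), macrophage markers 2 of 10 lower (median -0.45), muscle 2 of 12 lower (median -2.51), fibroblasts 1 of 8 lower (median -0.28) and endothelial cells none (median -0.37), beside 11.9% of all genes. Adipocyte markers had medians of 0.53 in parental and -1.46 in resistant tumours with anti-PD-1, and between the lines 1.73 under IgG and -0.20 under anti-PD-1. Of 5 adipocyte markers 2 were called higher under IgG and 1 under anti-PD-1. Neutrophil markers had medians of 0.34, -0.49, 1.00 and -0.37 in the same order, with 1 of 5 higher and 1 lower under anti-PD-1. The part of these cell types and of cell division in the levels of mitochondrial ribosomal proteins was not tested.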

How the data were processed

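Per the labels, Triazol was used to extract RNA from tumours, and biotin-labelled cRNA was hybridized to Mouse Genome 430 2.0 arrays. The authors deposited 1 table of log2 values per probe set and array, from 1.62 to 13.88, already scaled between arrays as their near-equal quartiles show; how they were normalized is not given in the sources used. Arrays have no depth, and their number limits the precision. Of 45101 probe sets, 64 were controls, and of the others only the 34945 with 1 gene were used. Their symbols were updated by gene number in a RefSeq gene table of GRCm38.p6, where 34741 matched, and promoter windows came from RefSeq on the same assembly. The probe set with the highest mean stood for a gene, and a gene was tested where 3 or more arrays lay above 3.32, the 25th percentile of the table. No pair of arrays was identical (0 pairs).

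The model, fitted by limma 3.58.1 (R 4.3.3) to all 12 arrays together, had a mean for each of the 4 groups and 5 contrasts, with 8 residual degrees of freedom and 2.98 from the prior. Two-sided p-values were adjusted by Benjamini-Hochberg over the 15493 genes of each contrast and called under 0.05. The procedure was tested on simulated data. The members and lists were chosen with earlier results of these data known. Named members are the 5 lowest and 5 highest differences in each contrast, the smallest p between the lines, the Mrps18 paralogues and members whose further probe sets disagree most. From each pathway list up to 3 genes with the smallest p in a contrast are named. Some values of named list genes in other contrasts, and Dap3, Chchd1 and Yy1, are given beside them. Mrpl38 and Mrpl44 are named for their further probe sets. Alternatives were other filters, probe set rules, scalings and fits, a replicate block and arrays left out. Python 3.11.15 with matplotlib 3.10.9 drew the figures.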

Additional observations from a re-analysis of the deposited data

How the results depend on the processing

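In parental tumours the number of members called lower, 11, was 12 with median centring and 12 with quantile normalization, 14 with a trended prior and 8 with no filter on dim genes. It was 7 with the mean of all probe sets, 22 with array weights, 0 with only the compared groups fitted (and 0 over all genes) and 7 without both arrays that stood apart. Leaving out 1 array gave 0 to 15 calls, as few as 0 without Sen+IgG replicate 2 or 3, 2 without Sen+PD1 replicate 3, 5 without Sen+PD1 replicate 1 and 7 without Sen+IgG replicate 1. It gave 3 without Res+IgG replicate 1 or without any 1 Res+PD1 array, and none of the 11 calls held through every omission. The median difference lay between -0.32 and -0.23 in all of these. Nothing is read from that range, because this contrast chose the members. Between the lines under IgG the count of 14 became 29 with array weights (23 higher, 6 lower), 7 with only the compared groups and 7 to 18 with 1 array left out; median centring gave 19 higher and 0 lower, and over all genes 2102 higher and 887 lower in place of 1384 and 1133. Under anti-PD-1 the 55 calls became 48 to 57 with 1 array left out. In resistant tumours the count was 0 under every setting tried. The interaction had 2 calls with array weights and 0 otherwise. The cause of these shifts was not tested.

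Whether same replicate numbers pair the arrays is not known. With group means taken off, 14 of 18 same-number pairs correlated over 0.1, from -0.21 to 0.64. Pairs of different numbers reached -0.51 (Sen+IgG replicate 1 with Sen+PD1 replicate 3) and -0.52 (Sen+IgG replicate 3 with Sen+PD1 replicate 1). Some were positive, such as 0.37 for Sen+IgG replicate 2 with Sen+PD1 replicate 3. With group means taken off, the deviations of a gene within a group sum to 0. Positive same-number values therefore bring negative ones with other numbers, which add no separate support for a tie. A tie between arrays of the same number is possible but not shown, and the main fit leaves it out. With the replicate block the counts were 13, 0, 18, 56 and 0 in the order parental, resistant, lines under IgG, lines under anti-PD-1 and interaction, against 11, 0, 14, 55 and 0.

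Of 13 calls of named members between the lines, 9 held under every alternative; Mrpl13, Mrpl51, Mrps25 and Mrps31 under IgG did not. No result turned its direction while called. The 3 arrays per group, unknown ties between arrays and mice, 1 resistant derivative and whole-tumour RNA limit all of these values.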
